A study of Mus musculus with 23 samples.

Results

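The genes of lipid uptake and cholesterol efflux described here are the 10 named by symbol as *Cd36*, *Msr1*, *Lpl*, *Soat1*, *Plin2*, *Apoe*, *Apoc1*, *Abca1*, *Abcg1* and *Nr1h3*. They were chosen by name as a set that handles lipid from degraded myelin, and all 10 were found among the 43068 genes of the crush libraries and the 22880 genes of the libraries of inducible knockouts (iKO). RNA sequencing of total RNA from mouse sciatic nerves (SNs) gave 23 libraries in 7 groups. The crush experiment used wild-type C57BL/6J male mice of 2 months: SN distal to a crush at 3 days post crush (dpc, n = 4), the contralateral SN of operated mice at the same time (n = 4), and uncrushed SN labelled as a control for the surgery (n = 3). The iKO experiment used SNs at 3 months post tamoxifen (mpT) from mice homozygous for floxed *Dicer1* or *Dgcr8*, both on a C57BL/6J background. The Dicer iKO (n = 3) and Dgcr8 iKO (n = 3) carried a CreERT2 transgene, while the Dicer controls (n = 3) and Dgcr8 controls (n = 3) lacked Cre but had the same floxed alleles and the same tamoxifen injections at 8 to 10 weeks of age. This transgene drives Cre in Schwann cells (SCs), other cells of the nerve keep the gene, and the study used only mutants in which the morphology of the nerve was affected.

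Myelin is rich in cholesterol, whose rings mammalian cells cannot break down. Cells that take up myelin debris through scavenger receptors release cholesterol from it in lysosomes, esterify it for storage in lipid droplets, or pass it through ABC transporters to apolipoproteins for export. Liver X receptors (LXRs) sense oxidised cholesterol and activate the genes of export. In injured nerves both SCs and macrophages digest myelin. Whole nerves were sequenced, so that fewer cells of a type and less RNA per cell cannot be told apart.

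Among the 10 genes, *Abca1* has a known LXR element just before its start, and the letters of that element (GGTTA, then any 5 bases, then GGTCA) were searched on both strands from 250 bases before to 50 bases after gene starts in the RefSeq annotation of GRCm38.p6. Promoter windows were given for 6 of the 10 genes (*Soat1*, *Nr1h3*, *Abca1*, *Plin2*, *Cd36* and *Apoe*; 9 windows), and of these the *Abca1* window held the letters. Since the letters were modelled on this element, the match in *Abca1* is a description. Over all 32851 windows, 16 held them (0.0487%). Of these, 3 belong to other genes of the lipid lists used below: the lipogenic genes *Srebf1* and *Fasn*, and *Acsl3*, a fatty acyl-CoA ligase. The windows are printed on the strand of each gene, 5′ to 3′, as a description. Capitals mark the match, which reads on the opposite strand in each of them.
Abca1, chr4:53159936-53159974, minus strand: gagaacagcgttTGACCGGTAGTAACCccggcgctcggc
Srebf1, chr11:60210627-60210665, minus strand: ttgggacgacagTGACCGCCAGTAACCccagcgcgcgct
Fasn, chr11:120824746-120824784, minus strand: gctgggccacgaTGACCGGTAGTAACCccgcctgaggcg
Acsl3, chr1:78657701-78657739, plus strand: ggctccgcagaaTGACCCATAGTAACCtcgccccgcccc
The match lies 67 to 53 bases before the start of *Abca1*, 182 to 168 before that of *Srebf1*, 225 to 211 before that of *Fasn* and 112 to 98 before that of *Acsl3*.

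Expected counts (read counts that the authors estimated with RSEM, so that they need not be whole) were summed per gene, and levels are given as CPM, counts scaled to the normalized size of each library. Library totals ranged from 6617716 to 12806066 counts in the crush experiment and from 5594859 to 10143244 in the iKO experiment, where 3 counts correspond to 0.234 to 0.453 CPM and to 0.296 to 0.536 CPM. Genes called upregulated or downregulated changed by 2-fold or more (1 on the log2 scale) and had an adjusted p of at most 0.05 in edgeR's quasi-likelihood test, Benjamini-Hochberg (BH) adjusted over all genes tested. The comparisons with uncrushed and with contralateral SNs share the 4 crushed libraries. Where groups are said not to overlap, the share of all genes without overlap was not counted. The labels name different library kits for the 2 experiments, which were therefore not tested against each other. Levels of the targeted genes over all exons gave a limited check of the labels. *Dicer1* was at 81.3, 82.1 and 82.0 CPM in Dicer iKO and at 88.1, 87.4 and 90.5 in Dicer controls. In the 3 libraries labelled Dgcr8 iKO, *Dgcr8* was at 39.4, 54.0 and 41.8 CPM, which was not lower than the 38.4, 35.4 and 41.8 CPM of their controls. The floxed exons were not counted separately. By real-time PCR at the same time after tamoxifen, the study reported reduced *Dicer1* and *Dgcr8* mRNA in the respective mutants. It also reported a reduced level of an abundant microRNA in both.

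In crushed SNs, 6 of the 9 genes with enough counts to be tested were upregulated against both kinds of control, and none was downregulated. They were the efflux transporter *Abca1*, the scavenger receptors *Msr1* and *Cd36*, the cholesterol esterifying enzyme *Soat1*, the droplet coat protein *Plin2* and the lipid carrier *Apoe*. The share of all tested genes called upregulated was 15.3% of 17433 against uncrushed SNs and 14.6% of 16667 against contralateral SNs, and 21.1% and 13.6% were downregulated. The median log2 fold change of the 9 genes was 1.57 against uncrushed and 1.65 against contralateral SNs, where the medians of all tested genes were -0.032 and -0.059. edgeR's exact test and DESeq2's Wald test also called none of the 10 genes downregulated. Ranges of *Plin2* alone did not overlap, by 1.01-fold, between contralateral and uncrushed SNs, where the share of all genes without overlap was not counted. None of the 9 genes was called between them, *Lpl* alone had an unadjusted p under 0.05 (0.0222), and 0% of the 17722 genes tested were called in either direction by this test, although 1005 were higher and 2160 lower at an unadjusted p under 0.05. DESeq2 called 31 of all genes lower in contralateral SNs and the exact test called 2 higher and 175 lower, with none of the 10 among them. Without uncrushed library 1 or 2 the quasi-likelihood test called 30 and 95 of all genes lower, again with none of the 10.

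**Figure D1:**
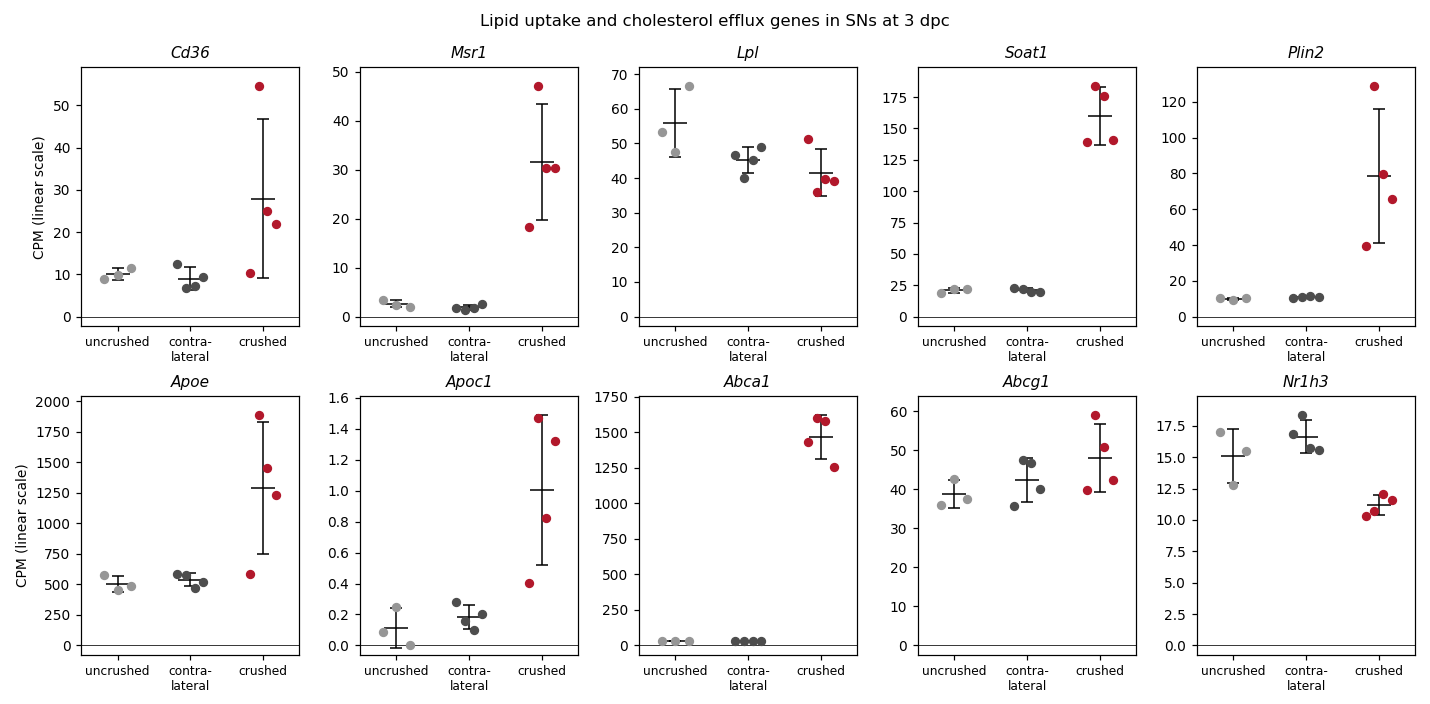
Levels of the 10 genes in uncrushed (n = 3), contralateral (n = 4) and crushed (n = 4) SNs at 3 dpc, in CPM on linear axes that differ between genes. Points are libraries, and the bars mark the mean and SD. *Abca1*, *Soat1*, *Plin2* and *Msr1* of crushed SNs lie above every control, as do *Apoc1*, at few counts, and *Apoe*. For *Apoe* the lowest crushed library is only 1.002-fold above the highest contralateral one. For *Cd36*, 1 crushed library lies among the controls, and *Nr1h3* of crushed SNs lies below every control. The share of all genes without overlap was not counted.

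Of the uptake receptors, *Msr1* (chromosome 8, 39581685 to 39642673), which encodes a scavenger receptor of macrophages, was at 18.2, 47.1, 30.3 and 30.4 CPM in the 4 crushed SNs. It was at 1.79, 1.41, 1.71 and 2.67 CPM in contralateral and at 3.42, 2.38 and 2.04 CPM in uncrushed SNs. The lowest crushed library was 5.33-fold above the highest uncrushed and 6.83-fold above the highest contralateral one, so that the groups did not overlap. *Msr1* was upregulated by a log2 fold change of 4.08 (standard error (SE) 0.28, adjusted p = 1.07e-08) against contralateral SNs and of 3.62 (SE 0.33, adjusted p = 1.21e-06) against uncrushed SNs. *Cd36* (chromosome 5, 17781690 to 17888801), a receptor for oxidised lipoproteins and long-chain fatty acids, was at 10.3, 54.6, 24.9 and 21.96 CPM in crushed SNs. In contralateral SNs it was at 12.5, 6.68, 7.22 and 9.43 CPM and in uncrushed SNs at 8.90, 9.88 and 11.6 CPM. The first crushed library lay inside the range of the controls and the other 3 above it. *Cd36* was upregulated by 1.65 (SE 0.37, adjusted p = 0.00135) on the log2 scale against contralateral and by 1.57 (SE 0.43, adjusted p = 0.00626) against uncrushed SNs. Without crushed library 2, the highest, these values were 1.07 (adjusted p = 0.00439) and 1.02 (adjusted p = 0.00889), just past the limit of 2-fold.

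*Lpl* (chromosome 8, 68880491 to 68907448) encodes lipoprotein lipase, which frees fatty acids from triglyceride. It was at 51.4, 35.8, 39.8 and 39.0 CPM in crushed, 46.8, 40.1, 45.1 and 48.9 CPM in contralateral, and 53.4, 47.5 and 66.6 CPM in uncrushed SNs. These ranges overlapped, and the log2 fold changes of -0.10 (SE 0.11, adjusted p = 0.427) and -0.31 (SE 0.14, adjusted p = 0.0668) did not pass the test.

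Both genes of storage separated crushed from control SNs. *Soat1* (chromosome 1, 156424525 to 156474331), whose enzyme esterifies cholesterol for storage, was at 139, 184, 176 and 141 CPM in crushed SNs. It was at 23.1, 22.4, 19.9 and 19.7 CPM in contralateral and at 18.9, 22.01 and 21.8 CPM in uncrushed SNs. The lowest crushed library was 6.03-fold above the highest contralateral library, and the log2 fold change was 2.92 (SE 0.10, adjusted p = 1.07e-11) against contralateral and 3.04 (SE 0.13, adjusted p = 1.43e-09) against uncrushed SNs. *Plin2* (chromosome 4, 86648386 to 86670060), which coats lipid droplets, was at 39.6, 129, 79.6 and 65.5 CPM in crushed SNs, at 10.47, 10.995, 11.7 and 11.1 CPM in contralateral SNs and at 10.3, 9.38 and 10.4 CPM in uncrushed SNs. Crushed libraries varied more than 3-fold among themselves, and yet the lowest was 3.38-fold above the highest contralateral library. *Plin2* was upregulated by 2.83 (SE 0.27, adjusted p = 3.08e-07) against contralateral and by 3.06 (SE 0.33, adjusted p = 5.83e-06) against uncrushed SNs. Contralateral *Plin2* levels all lay just above the uncrushed ones, by a log2 fold change of 0.13 that did not pass the test (adjusted p = 0.577).

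*Apoe* (chromosome 7, 19696109 to 19699188), the apolipoprotein that carries lipid between cells of the nerve, was at 584, 1889.8, 1452 and 1232 CPM in crushed SNs. It was at 583, 578, 471 and 518 CPM in contralateral and at 580.2, 451 and 489 CPM in uncrushed SNs. Crushed library 1 was thus level with the highest controls, and the other 3 stood clearly above. *Apoe* was upregulated by 1.27 (SE 0.24, adjusted p = 0.000309) against contralateral and by 1.44 (SE 0.29, adjusted p = 0.000912) against uncrushed SNs. Without crushed library 1 the values were 1.48 and 1.66, and without crushed library 2 they were 1.01 and 1.198. *Apoc1* (chromosome 7, 19689481 to 19692660), a small apolipoprotein gene that neighbours *Apoe*, was close to the detection limit, with 5, 18, 9 and 14 counts in crushed libraries and 0 to 3 counts in the 7 controls, and was left out of the test by the filter on low counts. Without this filter it was called upregulated (adjusted p = 0.000124 against contralateral and 4.45e-05 against uncrushed SNs). With so few counts in the controls, this call adds no support for a rise. Dropping the filter also shrank the adjusted p of other genes, as for *Abca1* against uncrushed SNs (5.62e-122).

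*Abca1* (chromosome 4, 53030787 to 53159895), which loads cellular cholesterol onto lipid-poor apolipoproteins, changed most of the 9 genes tested. It was at 1430.3, 1597, 1577 and 1259 CPM in crushed SNs, at 34.5, 33.0, 33.2 and 28.9 CPM in contralateral SNs and at 30.3, 31.0 and 34.3 CPM in uncrushed SNs. The lowest crushed library was 36.5-fold above the highest contralateral one. Its log2 fold change was 5.51 (SE 0.11, adjusted p = 2.02e-13), a 45.6-fold difference, against contralateral and 5.63 (SE 0.14, adjusted p = 6.53e-11), a 49.4-fold difference, against uncrushed SNs. *Abcg1* (chromosome 17, 31057675 to 31117988), which exports cholesterol to mature lipoprotein particles, was at 40.0 to 59.1 CPM in crushed, 35.7 to 47.4 CPM in contralateral and 36.0 to 42.8 CPM in uncrushed SNs. Its log2 fold changes were 0.19 (SE 0.12, adjusted p = 0.184) and 0.41 (SE 0.13, adjusted p = 0.0135), of which the latter passed the limit on adjusted p but was short of 2-fold.

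*Nr1h3* (chromosome 2, 91184061 to 91202834), which encodes the LXR alpha isoform, was at 10.4, 10.8, 12.1 and 11.6 CPM in crushed SNs. It was at 16.9, 18.4, 15.8 and 15.6 CPM in contralateral and at 16.99, 12.8 and 15.5 CPM in uncrushed SNs. All 4 crushed libraries lay below all 7 controls. The GENCODE annotation marks *Nr1h3*, like *Cd36*, as overlapping another gene, and how reads of the overlap were divided between them is not given in the sources used here. The log2 fold changes of -0.56 (SE 0.11, adjusted p = 0.000394) and -0.34 (SE 0.13, adjusted p = 0.0431) passed the limit on adjusted p but were short of 2-fold, so that *Nr1h3* was not called.

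Markers of macrophages moved with these changes. All 18 macrophage markers listed, among them *Adgre1*, *Csf1r* and *C1qa*, were upregulated in crushed SNs against either control, and none was at 0 in any group. Their summed level was 1155 to 2443 CPM in crushed, 162 to 301 CPM in contralateral and 226 to 266 CPM in uncrushed SNs. The crushed library with the lowest sum (1155, against 1974 to 2443 in the other 3) was library 1. This library also had the lowest *Msr1*, *Cd36*, *Plin2*, *Apoe*, *Soat1*, *Apoc1*, *Abcg1* and *Nr1h3* of the crushed libraries. It had the highest *Lpl* of them, and its *Abca1* was not the lowest. The 10 markers of myelinating SCs summed to 2061 to 3117 CPM in crushed and 42944 to 58668 CPM in control SNs, and 8 of them were downregulated and 1 upregulated. Endothelial markers, whose cells express *Cd36*, summed to 286 to 332 CPM in crushed and 270.2 to 325 CPM in control SNs, with 3 of 10 upregulated. Adipocyte markers, whose cells express *Lpl*, *Cd36* and *Plin2*, summed to 2.93 to 13.6 CPM in crushed SNs with the highest value in library 1, and to 4.24 to 9.53 CPM in controls. *Cidea*, an adipocyte marker, was at 0 in all crushed libraries. Neutrophil markers summed to 37.4 to 50.8 CPM in crushed SNs, above all contralateral SNs (24.7 to 35.5 CPM), where 2 of 3 tested were upregulated (median log2 fold change 1.06). The neutrophil marker *Retnlg* was at 0 in all contralateral SNs, and if tested adds no support to this count. Against uncrushed SNs (38.3 to 53.9 CPM) the sums overlapped, with 1 of 4 tested upregulated and 1 downregulated. The sums of skeletal muscle markers were 1.65 to 2.57 CPM in crushed and 5.13 to 14.7 CPM in control SNs. The part of these cells in the levels of the 10 genes was not tested.

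In iKO SNs without injury, 7 of the 10 genes were upregulated in Dicer iKO and 8 of the 10 in Dgcr8 iKO, each against its own controls, and none was downregulated by the quasi-likelihood, exact or Wald test. Of all genes tested, 7.37% of 13045 were upregulated and 1.64% downregulated in Dicer iKO, and 13.4% of 13252 and 6.99% in Dgcr8 iKO. *Apoe*, *Apoc1*, *Abca1*, *Plin2*, *Soat1*, *Msr1* and *Cd36* were upregulated in both mutants and *Lpl* in Dgcr8 iKO. The median log2 fold change of the 10 genes was 1.82 in Dicer iKO and 2.48 in Dgcr8 iKO, with medians of -0.0079 and -0.014 for all genes. *Apoc1* passed the filter on low counts through its level in the mutants, and so adds no support to these counts and medians. The counts in Dicer iKO depended on single libraries: without Dicer control 2, Dicer iKO 2 or Dicer iKO 3, 598, 562 and 515 of all genes were upregulated in place of 961, and without Dicer iKO 2 or 3, 4 of the 10 genes were (*Apoe*, *Abca1*, *Plin2* and *Soat1*).

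**Figure D2:**
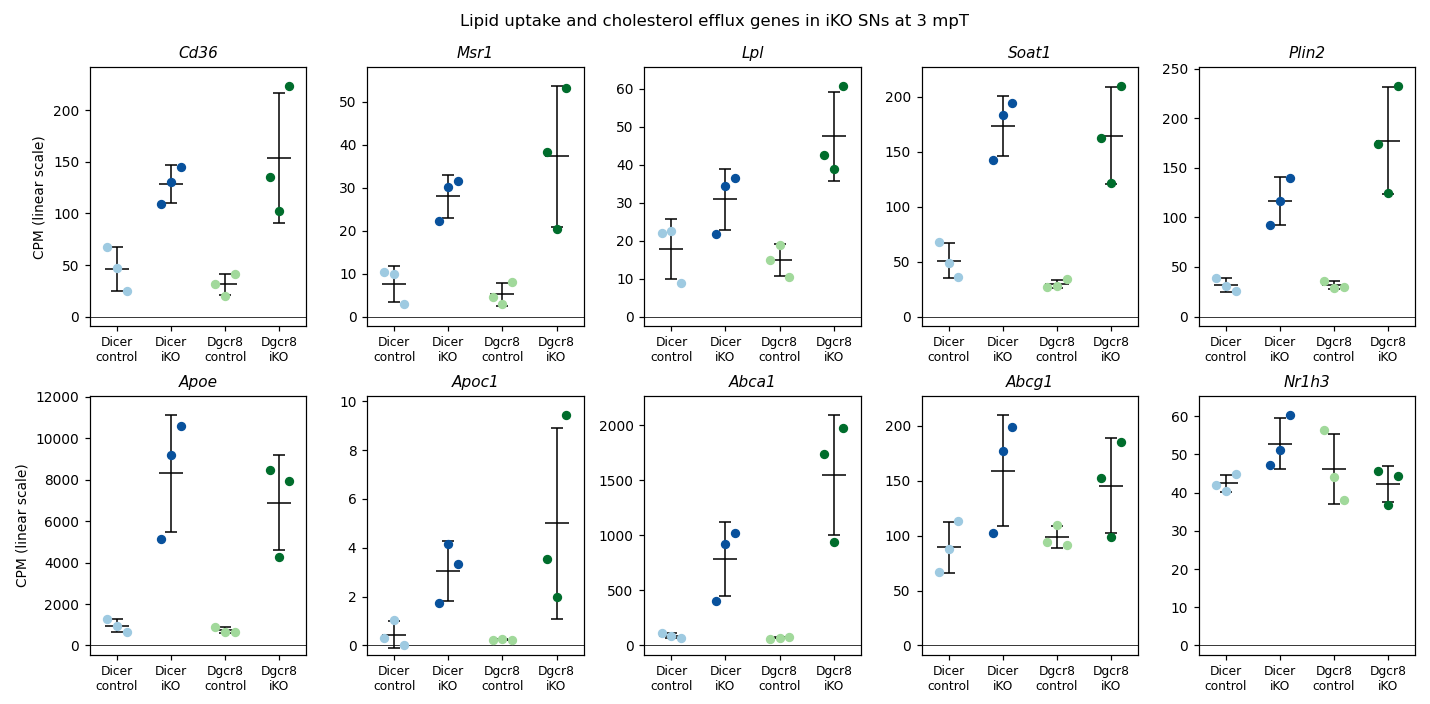
Levels of the 10 genes in Dicer control, Dicer iKO, Dgcr8 control and Dgcr8 iKO SNs at 3 mpT (n = 3 each), in CPM on linear axes that differ between genes. Points are libraries, and the bars mark the mean and SD. *Apoe*, *Abca1*, *Plin2*, *Soat1*, *Msr1*, *Cd36* and *Apoc1* of each mutant lie above all of its controls, and mutants spread more than controls for *Apoe* and *Abca1*. The share of all genes without overlap was not counted.

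*Apoe* was the most abundant of the 10 transcripts in iKO SNs and among those that rose most. It was at 5149, 9189.7 and 10590.0 CPM in Dicer iKO and at 1277, 923 and 646 CPM in Dicer controls. In Dgcr8 iKO it was at 8487, 4264 and 7919 CPM and in Dgcr8 controls at 912, 637 and 660.3 CPM. The lowest mutant was 4.03-fold and 4.67-fold above the highest control, and the log2 fold changes were 3.13 (SE 0.36, adjusted p = 0.00273) in Dicer iKO and 3.22 (SE 0.30, adjusted p = 1.67e-05) in Dgcr8 iKO. *Apoc1* had few counts, with 13, 24 and 24 in Dicer iKO against 2, 8 and 0 in controls, and 30, 21 and 81 in Dgcr8 iKO against 2 in each of the 3 controls. It was upregulated by 4.31 (SE 0.72, adjusted p = 0.000666) in Dgcr8 iKO, a value that depends on the prior count of the fit. In Dicer iKO its value of 2.69 (SE 0.78, adjusted p = 0.0459) was not past the threshold without Dicer control 1 (adjusted p = 0.0910) or 3 (0.0539), without Dicer iKO 2 (0.154) or 3 (0.147), or without the filter on low counts (0.0506).

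*Abca1* was at 403, 923 and 1025 CPM in Dicer iKO and at 113, 88.6 and 68.5 CPM in Dicer controls. In Dgcr8 iKO it was at 1742, 937 and 1973 CPM and in Dgcr8 controls at 62.9, 72.0 and 72.4 CPM. Neither mutant overlapped its controls, with gaps of 3.58-fold and 12.9-fold between the lowest mutant and the highest control. The log2 fold changes were 3.13 (SE 0.37, adjusted p = 0.00278), an 8.73-fold difference, in Dicer iKO and 4.49 (SE 0.28, adjusted p = 1.88e-06), a 22.4-fold difference, in Dgcr8 iKO. *Abcg1* was at 102, 177 and 199 CPM in Dicer iKO against 66.9, 87.5 and 113 CPM in controls, and at 153, 98.8 and 185 CPM in Dgcr8 iKO against 94.6, 110.1 and 91.7 CPM. Each mutant overlapped its controls, and the log2 fold changes of 0.84 (SE 0.27, adjusted p = 0.0670) and 0.56 (SE 0.20, adjusted p = 0.0406) were short of 2-fold. In Dicer iKO this result turned on 1 library: *Abcg1* was called upregulated without Dicer control 3 (1.04, adjusted p = 0.0287) and without Dicer iKO 1 (1.09, adjusted p = 0.0197).

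*Soat1* was at 143, 184 and 194 CPM in Dicer iKO against 67.9, 48.7 and 35.9 CPM in controls, and at 163, 122 and 210.0 CPM in Dgcr8 iKO against 27.0, 27.8 and 33.8 CPM. *Plin2* was at 92.0, 117 and 140.1 CPM in Dicer iKO against 38.8, 31.2 and 25.5 CPM, and at 174, 125 and 233 CPM in Dgcr8 iKO against 36.4, 29.0 and 29.6 CPM. For both storage genes all mutants were above all of their controls, by at least 2.10-fold in Dicer and at least 3.43-fold in Dgcr8 iKO. *Soat1* was upregulated by 1.78 (SE 0.23, adjusted p = 0.00377) in Dicer iKO and by 2.48 (SE 0.20, adjusted p = 6.37e-06) in Dgcr8 iKO, and *Plin2* by 1.87 (SE 0.20, adjusted p = 0.00237) and 2.48 (SE 0.21, adjusted p = 9.70e-06).

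The receptors were higher in each mutant too. *Msr1* was at 22.2, 30.2 and 31.4 CPM in Dicer iKO against 10.3, 9.78 and 2.84 CPM in controls, and at 38.3, 20.3 and 53.1 CPM in Dgcr8 iKO against 4.49, 2.99 and 8.08 CPM. *Cd36* was at 109, 131 and 145 CPM in Dicer iKO against 67.5, 47.2 and 24.3 CPM, and at 136, 102 and 224 CPM in Dgcr8 iKO against 31.8, 20.3 and 41.4 CPM. Mutants and controls did not overlap for either receptor, and Dicer controls spread widely. In Dgcr8 iKO *Msr1* was upregulated by 2.80 (SE 0.38, adjusted p = 0.000174) and *Cd36* by 2.29 (SE 0.30, adjusted p = 0.000137). In Dicer iKO *Msr1* was upregulated by 1.87 (SE 0.40, adjusted p = 0.0173) and *Cd36* by 1.47 (SE 0.32, adjusted p = 0.0186), but both calls depended on particular libraries, and were not past the threshold without Dicer control 2 (adjusted p = 0.0528 and 0.0724), Dicer iKO 2 (0.0716 and 0.0697) or Dicer iKO 3 (0.0807 and 0.0827).

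*Lpl* was at 42.6, 39.0 and 60.8 CPM in Dgcr8 iKO against 14.99, 18.9 and 10.47 CPM in controls, without overlap, and was upregulated by 1.69 (SE 0.22, adjusted p = 0.000147). In Dicer iKO it was at 21.7, 34.5 and 36.4 CPM against 22.1, 22.5 and 8.78 CPM, and 1 mutant lay inside the range of the controls. Its log2 fold change of 0.80 (SE 0.35, adjusted p = 0.148) did not pass the test. *Nr1h3* was at 47.1, 51.1 and 60.4 CPM in Dicer iKO against 42.1, 40.5 and 44.9 CPM, and at 45.5, 36.7 and 44.4 CPM in Dgcr8 iKO against 56.3, 44.1 and 38.1 CPM. The 3 Dicer iKO libraries lay above their controls and those of Dgcr8 iKO overlapped theirs, with log2 fold changes of 0.32 (SE 0.12, adjusted p = 0.0995) and -0.13 (SE 0.16, adjusted p = 0.534).

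Whether the 2 mutants differed was tested by an interaction term, the log2 fold change in Dgcr8 iKO minus that in Dicer iKO, and none of the 10 genes passed. The test called 0.00738% of the 13552 genes higher and 0.00738% lower, which is 1 gene in each direction, and without Dicer control 3 it called 320 and 81. The estimate was highest for *Apoc1* at 1.61 (SE 1.29, adjusted p = 0.614), followed by *Abca1* at 1.36 (SE 0.47, adjusted p = 0.239). *Abca1* (0.0117) and *Soat1* (0.0499) had an unadjusted p under 0.05, and DESeq2 called none of the 10. *Lpl*, called in Dgcr8 iKO alone, was at 0.90 (SE 0.46, adjusted p = 0.417), so that its effect is not shown to differ between the mutants.

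**Figure D3:**
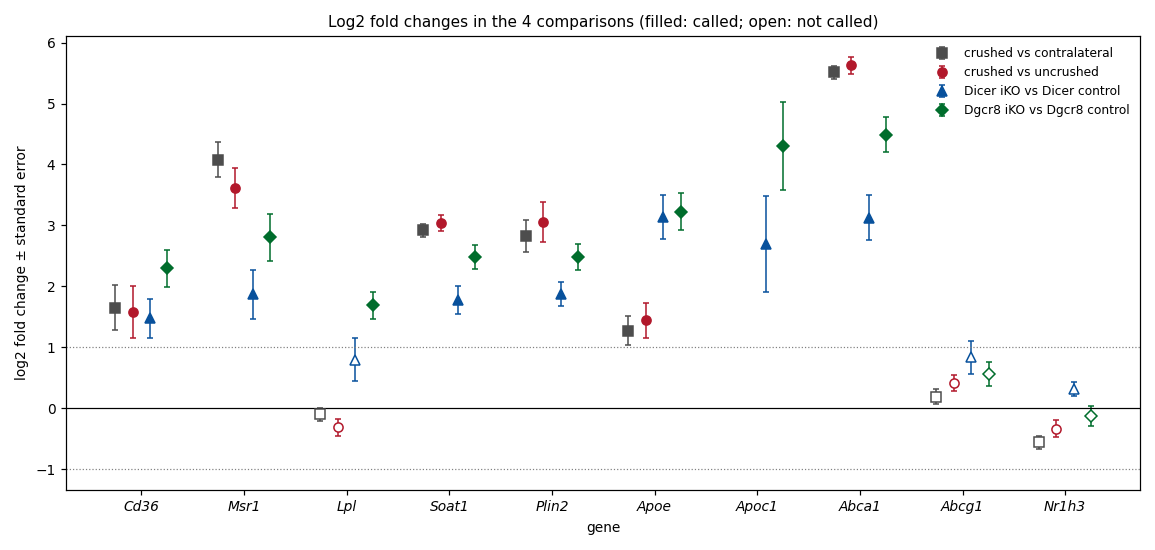
Log2 fold change with its SE for each of the 10 genes, in crushed against contralateral SNs, crushed against uncrushed SNs, Dicer iKO and Dgcr8 iKO against their controls. Filled symbols are called at 2-fold and an adjusted p of at most 0.05 (dotted lines mark 2-fold), *Apoc1* was not tested in the crush experiment, and *Abcg1* and *Nr1h3* have open symbols in all 4 comparisons.

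In the mutants as well, macrophage markers moved with these genes, of which 14 of 18 were upregulated in Dicer iKO and 16 of 18 in Dgcr8 iKO. Their summed level was 4890.1 to 9024 CPM in Dicer iKO against 482 to 1607 CPM, and 3482 to 8442 CPM in Dgcr8 iKO against 491 to 582 CPM. In each mutant the library with the lowest sum, Dicer iKO 1 and Dgcr8 iKO 2, also had the lowest level of all 10 genes. These include *Abcg1* and *Nr1h3*, which were not called in either mutant. Dicer control 1, with the highest sum of its group, had the highest *Apoe*, *Abca1*, *Soat1*, *Plin2*, *Msr1* and *Cd36* of the Dicer controls. It had the lowest *Abcg1* of them, and its *Lpl*, *Apoc1* and *Nr1h3* lay between those of the other controls. Dgcr8 control 1, with the lowest sum of its group (491 CPM), had the highest *Apoe*, *Plin2* and *Nr1h3* of the Dgcr8 controls, but the lowest *Abca1* and *Soat1*. Across the experiments, crushed SNs had 1155 to 2443 CPM of macrophage markers with 1259 to 1597 CPM of *Abca1*. Dicer iKO had 4890.1 to 9024 CPM of the markers with 403 to 1025 CPM of *Abca1*, and Dgcr8 iKO had 3482 to 8442 CPM with 937 to 1973 CPM. *Apoe* was at 584 to 1889.8 CPM in crushed SNs, 5149 to 10590.0 CPM in Dicer iKO and 4264 to 8487 CPM in Dgcr8 iKO. These values come from libraries of different kits and were not tested against each other.

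**Figure D4:**
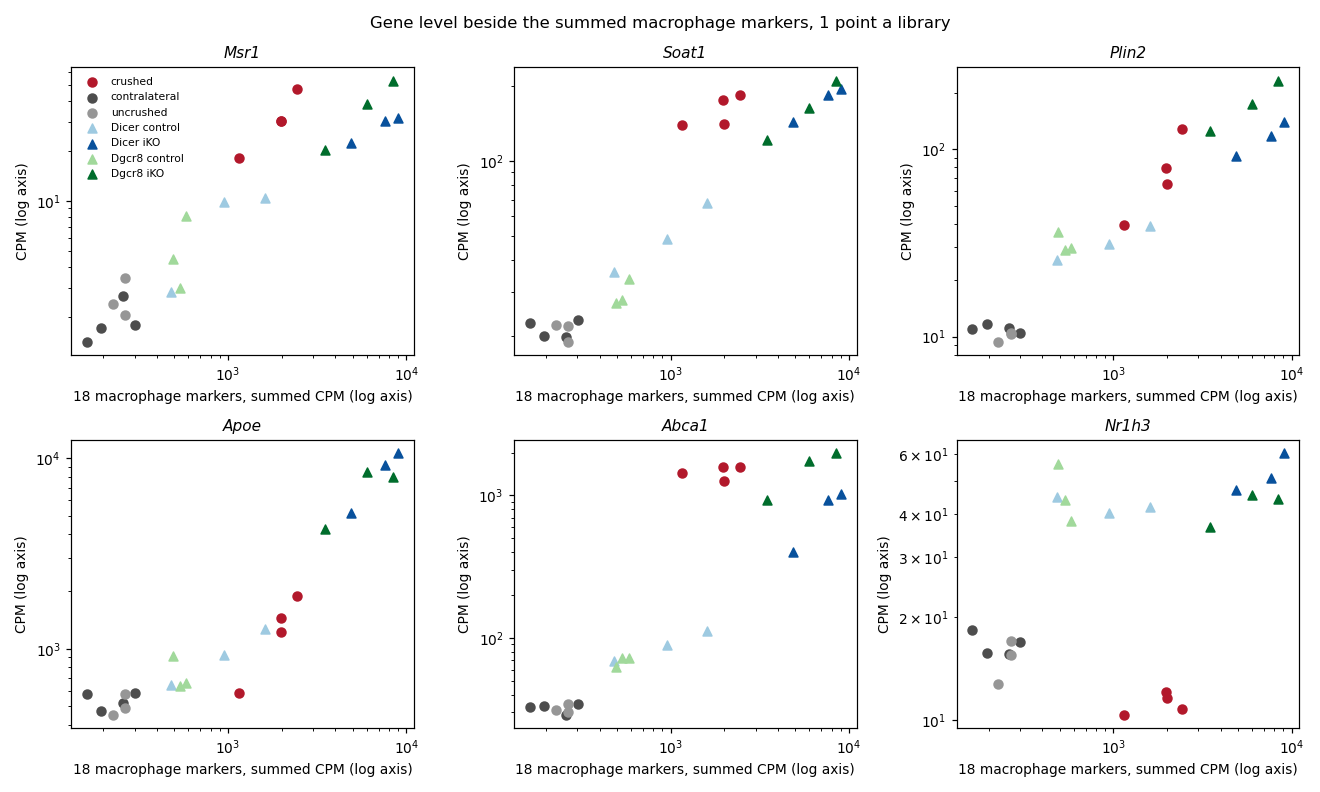
Level of *Msr1*, *Soat1*, *Plin2*, *Apoe*, *Abca1* and *Nr1h3* (vertical, CPM, log axis) against the summed level of 18 macrophage markers (horizontal, CPM, log axis), with 1 point a library and colours for the 7 groups. Circles are crush and triangles iKO libraries, which were prepared with different kits. Within the crush experiment, crushed SNs lie above their controls for *Abca1* and below them for *Nr1h3*, at marker sums of 1155 to 2443 CPM. Within the iKO experiment, mutants lie above their controls for *Apoe*. Levels were not tested between the experiments, whose controls already differ in *Nr1h3* (means of 15.1 CPM in uncrushed SNs and 42.5 CPM in Dicer controls).

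Other cell type markers of the iKO libraries were as follows. Markers of myelinating SCs summed to 23755 to 29631 CPM in Dicer iKO against 29702 to 49417 CPM, with none of 10 called, and to 15640 to 30339 CPM in Dgcr8 iKO against 46383 to 48988 CPM, with 5 of 10 downregulated. Endothelial markers summed to less in mutants, at 343 to 398 CPM against 466 to 545 CPM in Dicer iKO and 399.5 to 455 CPM against 534 to 665 CPM in Dgcr8 iKO. The summed adipocyte markers were under 10 CPM in all iKO libraries except Dicer control 2 (92.2 CPM) and Dgcr8 iKO 2 (74.1 CPM). Dicer control 2 had the highest *Lpl* of its group, at 22.48 CPM against 22.12 and 8.78 CPM. Dgcr8 iKO 2 had the lowest *Lpl*, *Cd36* and *Plin2* of its group, and *Lpl* was upregulated in Dgcr8 iKO without it (1.82, adjusted p = 8.17e-05). Neutrophil markers summed to 39.9 to 48.6 CPM in Dicer iKO against 25.8 to 41.8 CPM, with 1 of 2 tested upregulated, and to 28.1 to 41.6 CPM in Dgcr8 iKO against 28.0 to 64.1 CPM, with 3 of 4 tested upregulated and 1 downregulated. Their median log2 fold change was 1.06 in Dicer and 3.82 in Dgcr8 iKO, and *Ly6g* was at 0 in all 4 groups. *Retnlg* was also at 0 in both control groups, and *S100a9* in Dgcr8 controls. A marker at 0 in all controls can pass the filter on low counts only through the mutants, and so adds no support to these counts and medians. Skeletal muscle markers summed to 5.32 to 11.04 CPM in Dicer iKO against 7.01 to 23.8 CPM, with 1 of 2 tested downregulated, and to 2.22 to 6.10 CPM in Dgcr8 iKO against 5.71 to 20.2 CPM, with none called of 1 tested. The part of these cells in the result was not tested.

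Levels between genes were compared as TPM, which the authors scaled to transcript length and library size, within each group. *Apoe* was first of the 10 genes in every group, and its range did not overlap that of the next gene. In crushed SNs *Soat1* (mean 32.8 TPM) and *Abca1* (25.7 TPM) followed, with ranges that overlapped, and stood at 13.1% and 10.8% of *Apoe*. TPM gives more weight to counts on short transcripts. A retained intron of 509 bases held 21.2% of *Soat1* counts in crushed SNs, whereas a single transcript of 10262 bases held 99.9% of *Abca1* counts. The order of these genes thus depends on how RSEM divided the counts. In CPM, *Abca1* (1259 to 1597) was above *Soat1* (139 to 184) in crushed SNs. In contralateral and in uncrushed SNs *Abca1* was the 8th of 10, at 0.549% and 0.522% of *Apoe*. It was the 7th in both iKO controls and second in both mutants, where its TPM ranges overlapped those of *Plin2*, the next gene. *Nr1h3* was second in both iKO controls, where its range overlapped that of *Abcg1*, the next gene, and 7th in both mutants, while its own TPM level was 66.4 ± 6.87 (SD, n = 3) in Dicer iKO against 50.6 ± 5.48 and 51.9 ± 4.72 in Dgcr8 iKO against 52.9 ± 11.8. In the crush libraries a short transcript held 61.4% to 71.8% of all TPM. TPM values there therefore serve for the order of genes, within the limit given for *Soat1*, and not for their amount.

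The other genes of each step were taken from 9 lists. Between contralateral and uncrushed SNs no gene of the 9 lists was called, with list medians of -0.14 to 0.21, and in the interaction none was called either, with medians of -0.17 to 0.36. Log2 fold changes in crushed SNs are given below against contralateral SNs. Beside the counts of each list stand the shares of all genes tested. Called up and down were 14.6% and 13.6% against contralateral SNs and 15.3% and 21.1% against uncrushed SNs. In Dicer iKO they were 7.37% and 1.64%, and in Dgcr8 iKO 13.4% and 6.99%. List counts near these shares are not read as a result about the list. Among 11 other uptake receptors, 5 of 10 tested were upregulated and 1 downregulated against contralateral SNs (median log2 fold change 0.72), 4 and 1 of 10 against uncrushed SNs (0.61), 3 and 1 of 8 in Dicer iKO (0.45), and 4 and 1 of 9 in Dgcr8 iKO (0.81). *Cd68*, a lysosomal scavenger receptor of macrophages, rose from 4.11 to 7.17 CPM in contralateral to 25.9 to 78.7 CPM in crushed SNs (log2 fold change 3.32), and by 4.65 in Dgcr8 iKO. *Cxcl16*, a scavenger receptor that is also a chemokine, rose by 3.59 in Dgcr8 iKO. Of 8 partners of lipoprotein lipase, 4 were tested in each comparison, with 2 higher and 1 lower against contralateral and against uncrushed SNs (medians 0.73 and 0.68), 1 higher in Dicer iKO (0.17), and 1 of each in Dgcr8 iKO (0.38). The activator *Apoc2* was at 0 to 0.236 CPM in contralateral and 3.85 to 13.4 CPM in crushed SNs, and at 0 to 0.118 CPM in Dgcr8 controls and 3.91 to 7.47 CPM in Dgcr8 iKO. With 0 to 3 counts in contralateral and 0 to 1 in Dgcr8 control libraries, *Apoc2* passed the filter on low counts through the groups where it was high, and so adds no support to the counts of its list. The inhibitor *Angptl4* rose by 2.20 in crushed SNs, and *Gpihbp1*, which anchors the lipase to capillaries, fell in Dgcr8 iKO (-2.47).

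Among 10 genes of fatty acid binding and transport, 3 of 8 tested were upregulated and 2 downregulated against contralateral SNs (median 0.27), 3 and 1 of 9 against uncrushed SNs (0.45), 1 of 9 was upregulated in Dicer iKO (-0.12) and 4 of 10 in Dgcr8 iKO (0.41). *Fabp5*, a fatty acid binding protein, rose from 36.9 to 46.5 CPM to 133 to 210.1 CPM in crushed SNs (2.005) and was higher in both mutants (1.998 in Dicer and 1.27 in Dgcr8 iKO). *Fabp4* was at 0.301 to 0.849 CPM in contralateral and 0.943 to 5.38 CPM in crushed SNs, and at 0.408 to 0.944 CPM in Dgcr8 controls and 14.98 to 23.2 CPM in Dgcr8 iKO. It was called in both, but had 3 to 9 counts in either control group and passed the filter through the group where it was high. *Fabp3* rose by 1.94 in Dgcr8 iKO. Of 7 genes that release cholesterol in lysosomes, 2 were upregulated in crushed SNs against either control (medians 0.27 and 0.58), 1 in Dicer iKO (0.52) and none in Dgcr8 iKO (0.37). *Lipa*, the acid lipase that frees cholesterol from its esters, was at 132 to 197 CPM in crushed and 39.6 to 50.3 CPM in contralateral SNs (1.94, adjusted p = 3.20e-09). In Dgcr8 iKO it was at 127 to 196 CPM against 81.8 to 87.5 CPM, and its log2 fold change of 0.98 (adjusted p = 0.000614) was just short of 2-fold.

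Of 14 droplet storage genes, 9 were tested in crushed SNs and in each mutant, with 1 up and 2 down against contralateral and against uncrushed SNs (medians -0.36 and -0.21), where 14.6% and 13.6% of all genes tested were called up and down against contralateral SNs. None was called in Dicer iKO (-0.22) and 2 were down in Dgcr8 iKO (-0.25). The droplet coat gene *Plin4* fell from 7.17 to 15.1 CPM in contralateral to 0.642 to 3.93 CPM in crushed SNs (-2.59) and in Dgcr8 iKO (-2.46). Against contralateral SNs, *Plin4* passed the filter on low counts through the controls, where it was high, and so adds no support to that count. *G0s2*, an inhibitor of droplet lipolysis, fell in crushed SNs (-2.21), and *Soat2*, the other cholesterol esterifying enzyme, fell in Dgcr8 iKO (-2.02). Of 6 droplet breakdown genes, 1 of 5 tested rose against contralateral and against uncrushed SNs (medians 0.060 and 0.080), none of 6 in Dicer iKO (-0.19) and 2 of 6 in Dgcr8 iKO (0.32). The gene that rose in crushed SNs was *Nceh1*, which hydrolyses cholesterol esters and thereby opposes *Soat1*. It was at 137 to 174 CPM in crushed and 13.7 to 18.1 CPM in contralateral SNs (3.36, adjusted p = 4.03e-12), and rose by 1.28 in Dgcr8 iKO, where the carboxylesterase *Ces1d* rose by 1.45.

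Other efflux transporters and apolipoproteins went both ways, as did all genes tested. Of 13 genes, 11 were tested in each comparison, with 1 up and 4 down against contralateral and against uncrushed SNs (medians -0.31 and -0.29), 2 up in Dicer iKO (0.11), and 2 up and 1 down in Dgcr8 iKO (-0.096). *Abca2*, a transporter that is abundant in myelinating glia, fell from 284 to 407 CPM in contralateral to 26.6 to 31.0 CPM in crushed SNs (-3.53, adjusted p = 1.02e-11), where its relative *Abca1* rose, and fell by 1.17 in Dgcr8 iKO. *Lcat*, which esterifies cholesterol on lipoproteins, fell in crushed SNs (-1.95). *Apod*, an apolipoprotein of the nerve, was at 2668 to 4588 CPM in crushed and 1286 to 1938 CPM in contralateral SNs, and rose by 2.30 in Dgcr8 iKO, as did the phospholipid transfer protein *Pltp* (1.46).

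Calls among LXR partners and LXR targets went both ways in crushed SNs, as they did over all genes tested. All 14 genes were tested, with 2 up and 4 down against contralateral and against uncrushed SNs (medians -0.34 and -0.19), 2 up in Dicer iKO (0.26) and 4 up in Dgcr8 iKO (0.097). *Arl4c*, a small GTPase gene and LXR target, was at 18.2 to 46.1 CPM in crushed and 0.785 to 2.61 CPM in contralateral SNs (4.09, adjusted p = 3.95e-08), and rose by 3.92 in Dgcr8 iKO. With contralateral levels down to 0.785 CPM, *Arl4c* passed the filter on low counts through the crushed SNs. It therefore adds no support to the counts of its list against contralateral SNs. *Smpdl3a*, another target, rose by 2.05 in Dgcr8 iKO. Values of the other genes with the element printed above are given next, and whether LXRs act through the element in these nerves was not tested. *Fasn*, the fatty acid synthase, fell from 337 to 471 CPM to 56.0 to 81.2 CPM (-2.52, adjusted p = 6.13e-10). *Srebf1*, the regulator of lipogenesis, was at 23.8 to 29.6 CPM in crushed and 40.9 to 50.6 CPM in contralateral SNs (-0.72, adjusted p = 1.26e-05, short of 2-fold), and *Acsl3* was at 30.3 to 40.8 CPM and 60.2 to 73.7 CPM (-0.94, adjusted p = 1.65e-06, short of 2-fold). In Dgcr8 iKO *Srebf1* was upregulated by 1.01 (adjusted p = 0.000459), whereas *Fasn* was at -0.062 (adjusted p = 0.806) and *Acsl3* at -0.40 (adjusted p = 0.0290). Of the PPAR list (3 receptor genes and the coactivator gene *Ppargc1a*), 1 gene was up and 1 down against contralateral SNs (median 0.67), 2 were up and 1 down against uncrushed SNs (0.96), and 1 was up in Dicer iKO (0.094) and in Dgcr8 iKO (0.61). *Pparg*, a receptor for fatty acid derivatives, was upregulated in crushed SNs (1.46), in Dicer iKO (1.29) and in Dgcr8 iKO (2.08), although it stayed under 5 CPM in all groups. *Ppara* was downregulated in crushed SNs (-2.23).

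**Figure D5:**
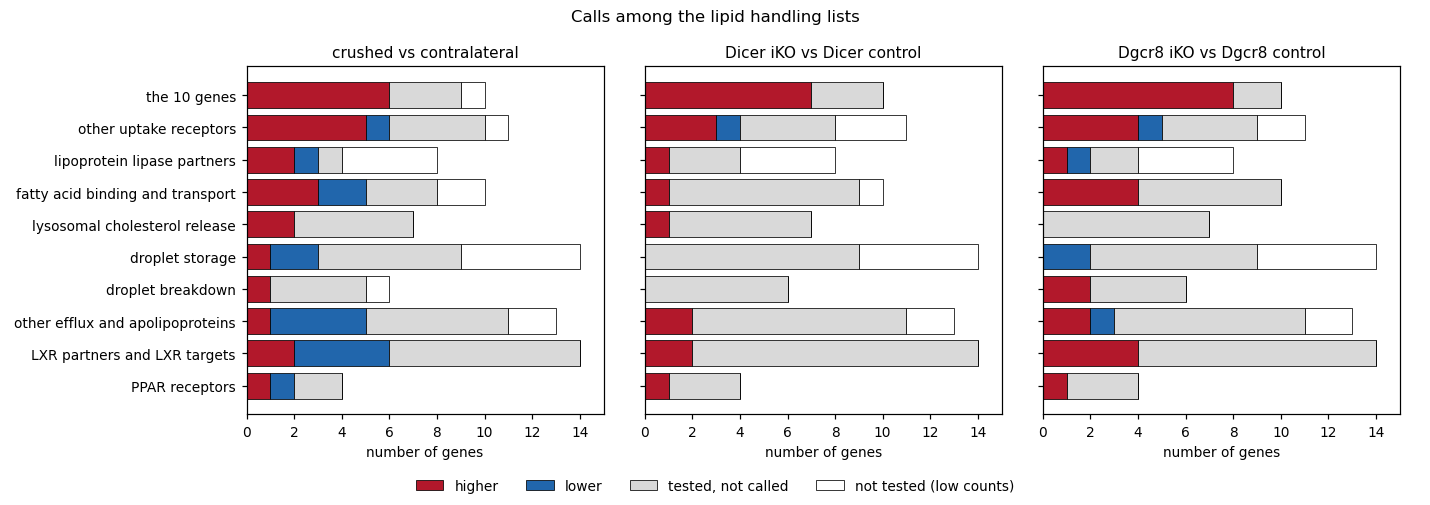
Number of genes called higher (red), called lower (blue), tested but not called (grey) and not tested for low counts (white) among the 10 genes and 9 other lipid lists, in crushed against contralateral SNs and in each mutant against its controls. The 10 genes have 6, 7 and 8 genes called higher and none lower. Droplet storage genes, other efflux genes and LXR partners and targets have more lower than higher genes in crushed SNs. Of all genes tested in crushed against contralateral SNs, 14.6% were called higher and 13.6% lower. The shares were 7.37% and 1.64% in Dicer iKO and 13.4% and 6.99% in Dgcr8 iKO. List counts near these shares, as for droplet storage in crushed SNs, are not read as a result.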

How the data were processed

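Each library was assigned to its group, with its replicate number, from the title and treatment labels. Uncrushed library 3 carries this number in its title and 4 in its description. The authors trimmed reads with Trimmomatic, aligned them to GRCm38 with STAR and deposited expected counts per Ensembl transcript, estimated with RSEM and not normalized. The deposited TPM values, which the authors' RSEM step had scaled for length and depth, served here for the order of genes alone, and the deposited FPKM values were not used. Per the labels, a SMARTer pico-input kit was used for the crush experiment and a TruSeq kit with Ribo-Zero depletion for the iKO experiment, whereas the study's methods name TruSeq. MicroRNA data were not analysed here.

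Expected counts were summed per gene, rounded and joined to symbols (42365 of 43068 genes in the crush and 22570 of 22880 in the iKO experiment). Positions are those of GENCODE M21 (GRCm38), and promoter sequences those of RefSeq (GRCm38.p6). DESeq2 1.42.0, limma 3.58.1 and edgeR 4.0.16 were run in R 4.3.3. Each comparison used the libraries of its own groups: filterByExpr with a minimum count of 10, TMM factors, and the quasi-likelihood test of edgeR, with BH correction over all genes kept. The interaction used the 12 iKO libraries and called genes on the adjusted p (0.05) alone. CPM used TMM factors computed across the whole experiment. The SE is the log2 fold change divided by the root of the F statistic. The code was tested on simulated data. Detection limits of 3 counts cover counting error only.

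The 10 genes, the 9 pathway lists and the 6 marker lists were chosen with earlier results of these data known. Named were all 10 genes and, of each pathway list, up to 2 genes with the largest log2 fold change in size among those called in crushed against contralateral SNs and among those called in Dgcr8 iKO. *Srebf1*, *Fasn* and *Acsl3*, and the values of named genes in Dicer iKO were added after their values were seen. Some genes that this rule names are not reported here. The study gives separate mice within each group, and p-values measure only the spread between these libraries. No replicate was a copy of another (chi-square per degree of freedom of 3.86 to 40.3 over 27 pairs). Whether same-numbered crushed and contralateral nerves came from the same mouse is not given in the sources used here. Settings changed in turn were the normalization (RLE), the filter (none, or at least 10 counts in every sample), a block for the replicate number, the test (exact test of edgeR, Wald test of DESeq2), a single fit of all groups, the adjusted p without a fold limit, and the omission of each replicate.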

Additional observations from a re-analysis of the deposited data

How the results depend on the processing

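Of 27 calls among the 10 genes, 24 kept their direction and their side of the threshold under every alternative, and the exceptions were *Apoc1*, *Cd36* and *Msr1* in Dicer iKO. Over 861 values of single genes under alternatives, 831 kept both, 14 lost and 6 gained a call, and 10 changed sign, none of them a called value. The adjusted p without a fold limit was counted among the alternatives. It uses the main fit and so could neither change a value nor remove a call, and adds no support to these counts. Same-numbered libraries did not deviate together in every pair of any comparison (r of the deviations from group means -0.154 to 0.157). With so few libraries this cannot show that crushed and contralateral nerves are unpaired. The numbers were not taken as pairs, since the labels do not tie them to mice. With the replicate block, 4 of the 10 genes were called in Dicer iKO (*Apoc1*, *Cd36* and *Msr1* not past the threshold, adjusted p = 0.0822, 0.0654 and 0.0650), with 548 of all genes higher and 92 lower. The block also called 6 genes lower in contralateral against uncrushed SNs and 0 genes in either direction of the interaction, and changed no other call of the 10 genes. With the adjusted p alone, *Nr1h3* counted as lower against both crush controls (1 of the genes each) and *Abcg1* as higher against uncrushed SNs and in Dgcr8 iKO, and all genes numbered 5891 higher and 5821 lower against uncrushed SNs, 5586 and 5483 against contralateral SNs, 1605 and 1159 in Dicer iKO, and 3165 and 2733 in Dgcr8 iKO. With at least 10 counts in every sample, 1747 genes were higher against uncrushed SNs (fewer genes were tested) and 0 in either direction of the interaction. Without a filter, 13 genes were higher and 128 lower in contralateral against uncrushed SNs, and 17 and 3 in the interaction. DESeq2 called 31 genes lower in contralateral against uncrushed SNs and 170 higher and 65 lower in the interaction, the exact test called 2 higher and 175 lower in the former, all groups in one fit 1 lower, and RLE normalization 0 lower in the interaction. The cause of these differences was not tested. Leaving out each replicate in turn gave 0 to 95 genes lower in contralateral against uncrushed SNs, 515 to 1093 higher and 57 to 375 lower in Dicer iKO with 4 to 8 of the 10 genes called, and 0 to 320 higher and 0 to 81 lower in the interaction. The values that changed sign were those of *Lpl* against contralateral SNs (0.064 without a filter), *Abca1* in contralateral against uncrushed SNs (-0.00150 with at least 10 counts in every sample, -0.014 to 0.080 with replicates left out), *Soat1* in the same comparison (-0.021 to 0.083), *Nr1h3* in Dgcr8 iKO (-0.26 to 0.034) and *Apoe* in the interaction (-0.18 to 0.35). Depth limits *Apoc1*, whose counts in the crush controls were at the detection limit.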

Other observations

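The transcripts of these genes differed in how the expected counts of the gene were divided among them, as estimated by RSEM within each library (means ± SD, n = 4 for crushed and contralateral SNs and n = 3 for every other group). For *Soat1*, a protein-coding transcript of 8371 bases held 30.0% ± 2.43 of the gene's counts in crushed SNs, 49.6% ± 4.84 in contralateral and 48.8% ± 3.71 in uncrushed SNs. A shorter protein-coding transcript of 2925 bases held 27.7% ± 2.21 in crushed, 13.8% ± 4.74 in contralateral and 10.9% ± 5.13 in uncrushed SNs. In the mutants, the shorter *Soat1* transcript held 35.8% ± 0.931 in Dicer iKO against 23.1% ± 6.37 in its controls, and 38.8% ± 1.12 in Dgcr8 iKO against 25.6% ± 9.85 in its controls.

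For *Apoe*, a transcript of 728 bases, annotated as processed transcript without a coding sequence, held 34.7% ± 2.86 of the gene's counts in crushed SNs, 24.4% ± 1.71 in contralateral and 23.2% ± 2.81 in uncrushed SNs. In the mutants this share was 19.3% ± 3.45 in Dicer iKO against 18.2% ± 0.922 in its controls, and 21.4% ± 4.19 in Dgcr8 iKO against 18.8% ± 0.890 in its controls. For *Abca1*, the main transcript held 99.9% ± 0.0522 of the gene's counts in crushed and 99.4% ± 0.831 in contralateral SNs. None of these shares was tested, and reads that several transcripts share are divided by a model, so the spread between libraries does not hold all of the error.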
